A study of Mus musculus with 9 samples.

Results

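The Dp1Tyb mouse carries an extra copy of the segment of chromosome 16 from *Lipi* to *Zbtb21*, and 8 genes in it that encode regulators of transcription were examined here: *Nrip1*, *Gabpa*, *Runx1*, *Sim2*, *Erg*, *Ets2*, *Prdm15* and *Zbtb21*. Of these, 7 encode sequence-specific transcription factors and 1, *Nrip1*, encodes a corepressor of nuclear receptors. They were chosen by position and function, with earlier results of these data known, out of 43629 genes in the count table. Other factor genes of the region, among them *Bach1*, are given separately below. The table lists 250 genes of the duplicated region, of which 89 had enough reads to be tested, and all 8 regulators were among these. In the GENCODE M21 annotation of the GRCm38 genome the region runs from 75540514 to 97962622 on chromosome 16, a length of 22.4 Mb.

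Gene expression was measured by RNA sequencing (RNAseq) in 9 cultures of mouse embryonic fibroblasts (MEFs), the mixed connective tissue cells that grow out when an embryo is dissociated. The WT group held 4 cultures and the Dp1Tyb group 5, each from one embryo of stage E14.5. Dp1Tyb embryos had the genotype Dp(16Lipi-Zbtb21)1TybEmcf, so that they held 3 copies of each gene of the region and their WT littermates 2. All embryos came from a C57BL/6J.129P2 background that had been crossed back to C57BL/6J, their heads and internal organs were removed before culture, and the cells received no treatment. The duplication is a germline change present in every cell, so a difference can come from any of its genes and cannot be assigned to one. The sample descriptions start with MEF1 for WT replicate 1 and Dp1Tyb replicate 1, called culture set 1 here. They start with MEF2 for the remaining cultures, 3 WT and 4 Dp1Tyb, called set 2. What the prefixes stand for is not stated.

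The factors belong to several protein families. *Gabpa*, *Ets2* and *Erg* encode ETS factors, which bind short DNA sites built around the letters GGAA. GABPA needs its partner GABPB to activate transcription and is known for driving genes of mitochondrial function and the cell cycle, ETS2 is activated by growth factor signalling, and ERG is a defining regulator of endothelial cells. *Runx1* encodes a RUNX factor that works with its partner CBFB and is best known for the formation of blood cells. *Sim2* encodes a basic helix-loop-helix PAS factor that pairs with ARNT proteins and is known from the developing brain. *Prdm15* and *Zbtb21* encode zinc finger proteins, and NRIP1 (also called RIP140) represses metabolic genes in fat and muscle through nuclear receptors. In Down syndrome the human orthologues of these genes are present in an extra copy.

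RefSeq tables of GRCm38.p6 gave 12 start sites, and hence 12 promoter windows of 250 bases upstream, for 7 of the 8 genes. The windows of *Nrip1*, *Prdm15* and *Zbtb21* are shown because the counts of these genes did not overlap between the genotypes and the windows hold no annotated exon, unlike that of *Gabpa*, and a window of *Runx1* because it holds one of the motifs searched. Each is written 5′ to 3′ on the strand of its gene, which is the minus strand for all 4, and ends at the last base before the start site. Capitals mark a match to CCGGAA, an ETS core, or to TGTGGT, a RUNX core, on either strand. The windows lie at chr16:76373828-76374077 (*Nrip1*), chr16:97851851-97852100 (*Prdm15*), chr16:97962623-97962872 (*Zbtb21*) and chr16:92697330-92697579 (*Runx1*, the downstream of its 2 start sites).
Nrip1: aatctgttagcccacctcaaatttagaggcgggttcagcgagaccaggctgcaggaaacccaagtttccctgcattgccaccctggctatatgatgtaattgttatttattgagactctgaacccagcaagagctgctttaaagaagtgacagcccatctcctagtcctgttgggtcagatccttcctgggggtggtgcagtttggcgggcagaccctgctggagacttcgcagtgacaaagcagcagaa
Prdm15: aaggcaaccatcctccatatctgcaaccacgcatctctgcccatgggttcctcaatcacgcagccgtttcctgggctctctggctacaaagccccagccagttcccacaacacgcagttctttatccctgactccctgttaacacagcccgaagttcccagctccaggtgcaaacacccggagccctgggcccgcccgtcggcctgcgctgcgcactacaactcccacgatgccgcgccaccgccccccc
Zbtb21: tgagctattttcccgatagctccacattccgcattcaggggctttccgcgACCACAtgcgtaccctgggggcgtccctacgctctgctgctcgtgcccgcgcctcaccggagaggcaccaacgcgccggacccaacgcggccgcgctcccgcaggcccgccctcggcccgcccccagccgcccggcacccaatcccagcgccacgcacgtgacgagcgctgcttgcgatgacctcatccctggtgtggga
Runx1: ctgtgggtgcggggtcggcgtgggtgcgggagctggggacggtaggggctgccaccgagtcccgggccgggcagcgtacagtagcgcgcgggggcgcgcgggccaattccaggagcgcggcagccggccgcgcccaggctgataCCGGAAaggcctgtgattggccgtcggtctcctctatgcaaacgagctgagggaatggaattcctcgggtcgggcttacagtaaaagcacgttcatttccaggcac

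The ETS core occurred in 2 of the 12 windows, 106 bases before the *Runx1* start site shown and 92 bases before that of *Gabpa*. Of all 32851 windows of this length, 3952 (12%) held it. The RUNX core occurred in 1 of the 12 windows, in the orientation ACCACA, 200 bases before the start site of *Zbtb21*, a motif held by 4614 (14%) of all windows. These matches are descriptions of the letters and not measurements of binding. The GC content of the printed windows was 51.2% for *Nrip1*, 62.4% for *Prdm15*, 70.0% for *Zbtb21* and 67.6% for *Runx1*, beside a median of 52.4% over all windows. *Nrip1* and *Prdm15* each have a further, downstream start site whose window is not printed. The GC content of these windows was 73.6% for *Nrip1* and 76.8% for *Prdm15*.

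Total counts were between 25571442 and 30009361 per WT culture and between 24804539 and 26782380 per Dp1Tyb culture. The markers of fibroblasts, 10 genes including *Col1a1* and *Vim*, summed to between 46700 and 61700 CPM, the count relative to the library total, in WT and to between 39600 and 66100 CPM in Dp1Tyb MEFs. Markers of 5 other cell types were far lower, and those of Schwann and neural crest cells did not overlap between the genotypes, with 36.4 to 74.6 CPM in WT and 13.7 to 35 CPM in Dp1Tyb MEFs. Of these 7 markers, 4 had an unadjusted p below 0.05, all lower in Dp1Tyb MEFs, beside 3.13% of all genes tested in either direction, and 0 passed the adjusted test in edgeR. Dp1Tyb replicate 2 stood apart with the highest sum of skeletal muscle markers, 242 CPM beside at most 71.4 CPM elsewhere, and the lowest sum of fibroblast markers. Most of this muscle sum came from *Acta1*, with 5457 counts in that culture. *Myod1*, *Myog* and *Mymk* had at most 3 counts in every culture. Of the 3 skeletal muscle markers tested, 2 also had an unadjusted edgeR p below 0.05, both higher in Dp1Tyb MEFs. *Des* had 177 to 425 normalised counts in WT and 342 to 1008 in Dp1Tyb MEFs (adjusted p 0.547), and *Myh3* had 1 to 2 and 4 to 30 (adjusted p 0.252). The part of these differences in the values below was not tested. In cultures sequenced in bulk, fewer cells of a type and less RNA per cell cannot be told apart.

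Within these MEFs, 2 of the 8 regulators rose in Dp1Tyb cultures, *Gabpa* by 1.56-fold and *Nrip1* by 1.52-fold, and 0 fell (edgeR quasi-likelihood test, adjusted p below 0.05). By the same rule 0.165% of the 14567 genes tested were called higher, and 27.4% of the other 73 protein-coding genes of the duplicated region, 20 genes. An unadjusted p below 0.05 was reached by 5 of the 8, beside 3.13% of all genes in either direction. Of the other 73 protein-coding genes of the region, 54 reached it, all higher. *Prdm15* and *Zbtb21* had higher counts in every Dp1Tyb culture than in any WT culture without passing the adjusted test. *Runx1*, *Ets2*, *Sim2* and *Erg* overlapped between the genotypes, and *Erg* was the one with the lower mean in Dp1Tyb MEFs. A normalised count below is the read count scaled by edgeR's TMM method to a common library of 26405108 reads.

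**Figure D1:**
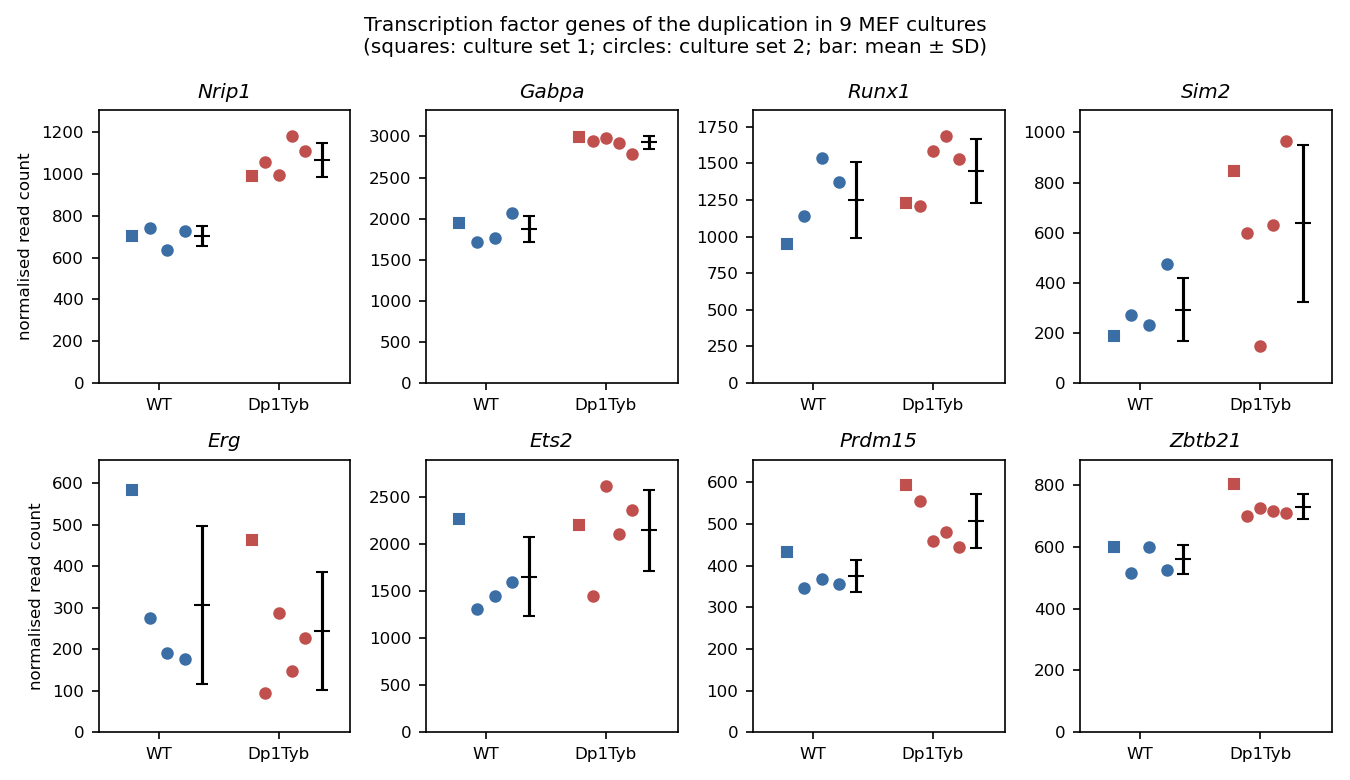
Normalised read counts (y axis, from 0) of the 8 genes in each WT (blue, n = 4) and Dp1Tyb (red, n = 5) MEF culture, with culture set 1 as squares, set 2 as circles and bars for the mean ± SD. The genotypes are apart for *Nrip1*, *Gabpa*, *Prdm15* and *Zbtb21*, and overlap for the other 4 genes.

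*Gabpa* (ENSMUSG00000008976, plus strand, 84834925 to 84863779) was the most highly expressed of the 8 per length of its exons. Its normalised counts were 1950, 1720, 1762 and 2067 in WT replicates 1 to 4, and 2994, 2947, 2976, 2924 and 2790 in Dp1Tyb replicates 1 to 5. The lowest Dp1Tyb culture was above the highest WT culture, and the 5 Dp1Tyb cultures lay close together, with a coefficient of variation of 2.77% beside 8.68% in WT. The means were 1870 ± 163 (SD, n = 4) for WT and 2930 ± 81.0 (SD, n = 5) for Dp1Tyb. On the log2 scale the fold change was 0.64 with a standard error (SE) of 0.0697 and a 95% interval of 0.49 to 0.80, and edgeR gave an adjusted p of 0.0102. The pair of cultures in set 1 alone gave a ratio of 1.54. The call was lost without WT replicate 2 (adjusted p 0.0632), WT replicate 3 (0.0678) or Dp1Tyb replicate 5 (0.0503), and within set 2 (0.101), while the log2 fold change was never below 0.60. Of the exon bases of *Gabpa*, 6.98% are shared with *Atp5j* on the other strand, a duplicated gene with a mean of 2800 counts, so reads from that stretch may be uncertain.

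*Nrip1* (ENSMUSG00000048490, minus strand, 76287400 to 76373827) lies nearest to the *Lipi* end of the region among the regulators examined. In WT replicates 1 to 4 it had 705, 743, 638 and 725 normalised counts, and in Dp1Tyb replicates 1 to 5 it had 989, 1057, 996, 1180 and 1108. The genotypes did not overlap. The means were 703 ± 45.7 (SD, n = 4) for WT and 1070 ± 80.3 (SD, n = 5) for Dp1Tyb. The log2 fold change was 0.60 with an SE of 0.0775, and edgeR's adjusted p was 0.0183. The 95% interval of the fold was 1.34 to 1.71 and held 1.5, the ratio of 3 copies to 2. Leaving out 1 culture kept the call in 3 of 9 cases: it was lost without WT replicate 1 (adjusted p 0.0548), 2 (0.0664), 3 (0.0977) or 4 (0.0636) and without Dp1Tyb replicate 4 (0.0556) or 5 (0.0942). It was also lost within set 2 (0.14), where the log2 fold change was 0.63. Without Dp1Tyb replicate 2, the culture with the highest sum of muscle markers, both *Gabpa* and *Nrip1* were still called.

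*Zbtb21* (ENSMUSG00000046962, minus strand, 97943357 to 97962622), the last gene of the duplication, encodes a zinc finger protein with a BTB domain. Its normalised counts were 600, 514, 598 and 523 in the WT cultures and 801, 698, 724, 714 and 709 in the Dp1Tyb cultures, in order of replicate. The genotypes were fully apart, and Dp1Tyb replicate 1 was the highest of the 9. Means of 559 ± 46.5 (SD, n = 4) and 729 ± 41.3 (SD, n = 5) gave a log2 fold change of 0.38 with an SE of 0.0784. The edgeR test gave an unadjusted p of 0.000693 and an adjusted p of 0.246. DESeq2 with its current defaults gave an adjusted p of 0.00353 for the same gene, under a rule that called 0.293% of its 16372 genes higher. The 95% interval of the fold, 1.16 to 1.47, lay above 1 and below 1.5. Its exons share 86 bases with *C2cd2* on the same strand, and reads that lie there may be uncertain.

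*Prdm15* (ENSMUSG00000014039, minus strand, 97791467 to 97851850), a zinc finger gene known from early development, was the least expressed of the 8 per exon length. WT cultures had 432, 347, 368 and 357 normalised counts, and Dp1Tyb cultures 593, 556, 459, 481 and 445. The lowest Dp1Tyb culture was above the highest WT culture by a small margin. Both set 1 cultures were the highest of their genotype. Means were 376 ± 38.3 (SD, n = 4) for WT and 507 ± 64.7 (SD, n = 5) for Dp1Tyb, a log2 fold change of 0.43 with an SE of 0.114. The unadjusted p in edgeR was 0.0038 and the adjusted p 0.651, and the 95% interval of the fold, 1.13 to 1.61, held 1.5.

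The count of genes with every Dp1Tyb culture above every WT culture was thus 4 of the 8, beside 0.686% of all genes tested and 57.5% of the other 73 protein-coding genes of the region, 42 genes. No gene among the 8 had every Dp1Tyb culture below every WT culture.

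*Ets2* (ENSMUSG00000022895, plus strand, 95702075 to 95721051) had 2258, 1306, 1442 and 1599 normalised counts in the WT cultures and 2194, 1447, 2609, 2107 and 2355 in the Dp1Tyb cultures. WT replicate 1 stood above the other 3 WT cultures. WT replicates 1 and 4 lay within the Dp1Tyb range, and Dp1Tyb replicates 1, 2 and 4 lay within the WT range. The means were 1650 ± 422 (SD, n = 4) and 2140 ± 433 (SD, n = 5). The log2 fold change was 0.38 with an SE of 0.195, an interval of -0.06 to 0.81 and an edgeR unadjusted p of 0.0843. Within set 1 the ratio of Dp1Tyb to WT was 0.972, while set 2 alone gave a log2 fold change of 0.56. Leaving out WT replicate 1 gave 0.57, leaving out Dp1Tyb replicate 2 gave 0.49, and the adjusted p stayed at 0.912 or above in these and all other cases with 1 culture left out.

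*Runx1* (ENSMUSG00000022952, minus strand, 92601466 to 92826149) had 948, 1141, 1537 and 1370 normalised counts in the WT cultures and 1230, 1209, 1584, 1688 and 1531 in the Dp1Tyb cultures. The genotypes overlapped, with 2 of the 5 Dp1Tyb cultures above all WT cultures. Means of 1250 ± 258 (SD, n = 4) and 1450 ± 217 (SD, n = 5) gave a log2 fold change of 0.21 with an SE of 0.155, and edgeR's unadjusted p was 0.199. The 95% interval of the fold was 0.911 to 1.48, which held 1 and lay below 1.5. The set 1 pair gave a ratio of 1.3. Markers of macrophages and blood, cells in which *Runx1* is also expressed, summed to between 57.4 and 212 CPM in WT and between 14.3 and 305 CPM in Dp1Tyb MEFs; their part in the *Runx1* counts was not tested.

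*Sim2* (ENSMUSG00000062713, plus strand, 94084931 to 94127032) had the largest SD of the 8 around the genotype means on the log2 scale, while *Erg* had the larger coefficient of variation in both genotypes. WT cultures had 189, 273, 232 and 474 normalised counts, and Dp1Tyb cultures 847, 597, 149, 632 and 967. In 4 of the 5 Dp1Tyb cultures the count was above every WT culture, whereas Dp1Tyb replicate 3 had the lowest count of all 9. The means were 292 ± 126 (SD, n = 4) and 639 ± 313 (SD, n = 5). The log2 fold change of 1.13 had an SE of 0.472, a 95% interval of 0.08 to 2.19, an unadjusted edgeR p of 0.0383 and an adjusted p of 1.0. Without Dp1Tyb replicate 3 the log2 fold change was 1.38 and the adjusted p 0.307. Set 2 alone gave 0.85, and DESeq2 with its beta prior, which shrinks uncertain values toward 0, gave 0.34. Within set 1 the Dp1Tyb culture had 4.49 times the count of the WT culture.

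*Erg* (ENSMUSG00000040732, minus strand, 95359169 to 95586593) had 583, 276, 190 and 177 normalised counts in the WT cultures and 462, 94, 288, 148 and 227 in the Dp1Tyb cultures. The highest culture of each genotype was the one in set 1, and the lowest of all was Dp1Tyb replicate 2. Means of 307 ± 189 (SD, n = 4) and 244 ± 143 (SD, n = 5) gave a log2 fold change of -0.33 with an SE of 0.485, and edgeR's unadjusted p was 0.51. The 95% interval, -1.42 to 0.75 on the log2 scale, held both no change and a 1.5-fold increase. Without WT replicate 1 the log2 fold change was 0.19, without Dp1Tyb replicate 2 it was -0.13, and adding the culture set to the fit gave -0.22. The 8 endothelial markers summed to between 9.05 and 16.6 CPM in WT and between 6.71 and 20 CPM in Dp1Tyb MEFs. *Pecam1*, *Cdh5*, *Cldn5* and *Tie1*, which define that cell type, were all too low to be tested. Their mean normalised counts were 2.19, 2.01, 0 and 0.51 in WT and 6.56, 11.5, 1.6 and 2.4 in Dp1Tyb MEFs. All 4 means were thus higher in Dp1Tyb MEFs, at few counts. Of the other 4 markers, *Emcn* was at 1.77 with an interval of 0.47 to 3.06 and an edgeR unadjusted p of 0.0126 (adjusted p 1.0), while *Kdr* was at -0.07, *Tek* at -0.18 and *Vwf* at -0.15. The part of endothelial cells in the *Erg* counts was not tested.

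**Figure D2:**
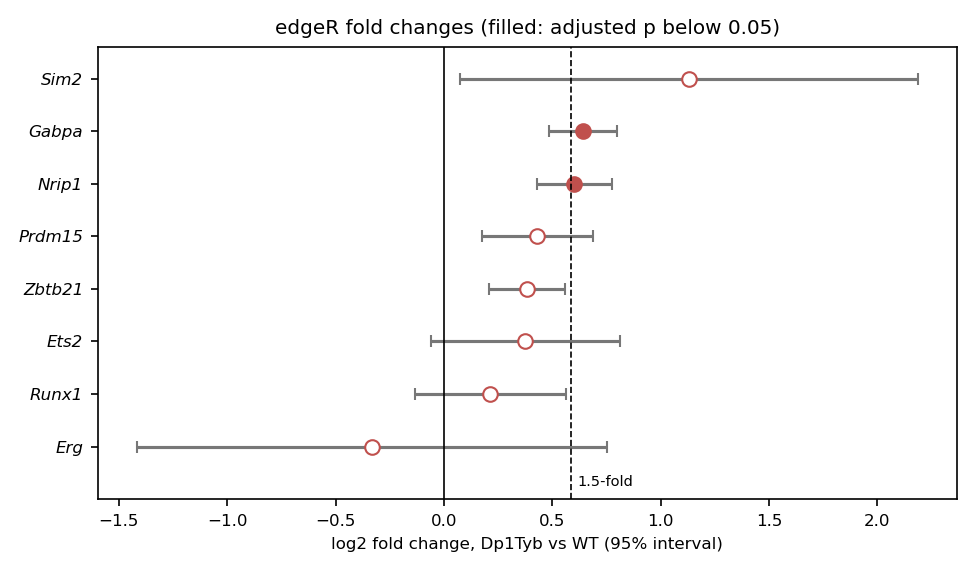
Log2 fold change of Dp1Tyb vs WT from edgeR (x axis) for the 8 genes, with 95% intervals as bars. Filled points have an adjusted p below 0.05, and the dashed line marks 1.5-fold, which lies within the interval of 6 of the 8 genes.

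Compared with other duplicated genes, the 8 regulators had a median log2 fold change of 0.41 (1.33-fold), and the other 73 protein-coding genes of the region that were tested had 0.59 (1.51-fold). Over all 14567 genes tested the median was 0.00. The 95% interval held 1.5-fold for 6 of the 8 regulators, the exceptions being *Runx1* and *Zbtb21*, both below it. The same was true of 94.5% of the other 73 genes, 69 genes, and of 23% of all genes tested. Whether the regulators differ from other duplicated genes was not tested. When each culture was set against the WT mean, the median over the 8 genes was between 0.36 and 0.56 (log2) in the Dp1Tyb cultures, with a mean of 0.44 ± 0.075 (SD, n = 5). In the WT cultures it was between -0.12 and 0.08, with a mean of -0.04 ± 0.097 (SD, n = 4). All 5 Dp1Tyb cultures thus lay above all 4 WT cultures by this summary, including Dp1Tyb replicates 2 and 3, which held the lowest *Erg* and *Sim2* counts. The summary adds little to the values of single genes, since 4 of the 8 were already apart by genotype.

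**Figure D3:**
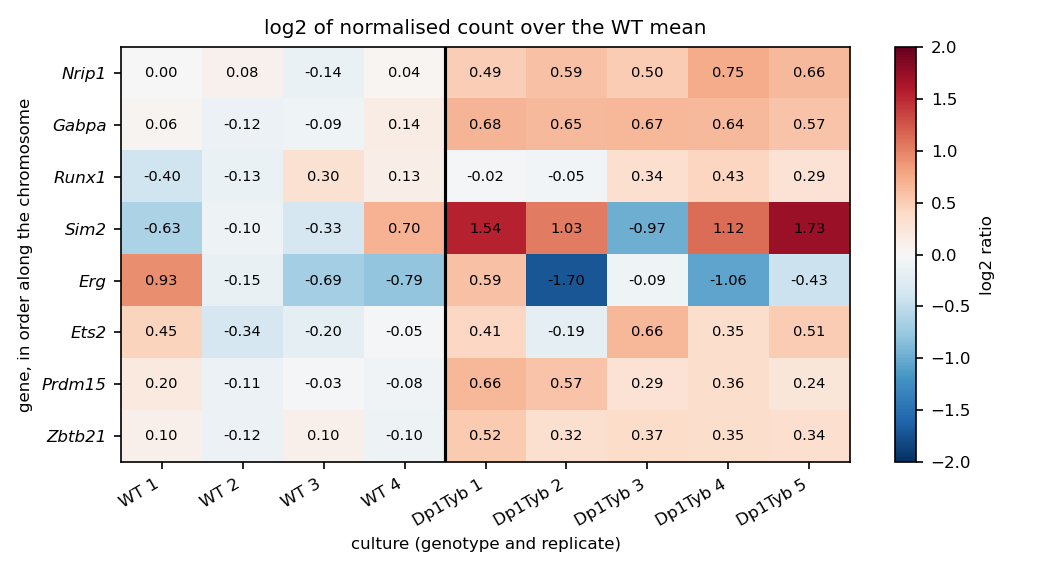
Log2 of the normalised count over the WT mean for each gene (rows, in order along chromosome 16) in each culture (columns, WT left of the line), with red for higher and blue for lower values. *Nrip1*, *Gabpa*, *Prdm15* and *Zbtb21* are above 0 in all Dp1Tyb cultures, while *Sim2* and *Erg* have the strongest values in both directions.

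The spread between cultures of one genotype differed among the genes. Residual SDs (log2, around the genotype means, over 9 cultures) were 0.087 for *Gabpa*, 0.0987 for *Zbtb21*, 0.102 for *Nrip1* and 0.164 for *Prdm15*. They were 0.26 for *Runx1*, 0.332 for *Ets2*, 0.835 for *Erg* and 0.891 for *Sim2*. Each was set beside the 500 tested genes closest in mean expression. Of such genes, 97.2% had a smaller SD than *Sim2*, 97.0% a smaller SD than *Erg*, 89.8% than *Ets2* and 83.6% than *Runx1*, but 16.6% than *Gabpa* and 16.4% than *Zbtb21*. The 4 genes with the largest spread were the 4 whose genotypes overlapped. Spread and overlap come from the same counts, so this is not a separate observation.

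Levels were compared between genes as RPKM, the read count scaled for exon length and library total. The mean over the 9 cultures was 16.3 RPKM for *Gabpa*, 12.6 for *Ets2*, 4.31 for *Sim2*, 4.27 for *Runx1*, 3.9 for *Zbtb21*, 3.01 for *Erg*, 2.98 for *Nrip1* and 1.49 for *Prdm15*. *Gabpa* was above 80.5% of the genes tested, *Sim2* above 49.2% and *Prdm15* above 28.3%, so all 8 lay within the bulk of genes expressed in MEFs. Neighbours in this order overlapped over the cultures, except *Nrip1* and *Prdm15*. *Gabpa* was above *Ets2* in 8 of the 9 cultures and *Ets2* above *Sim2* in all 9. *Sim2* was above *Runx1* in 4 cultures and *Erg* above *Nrip1* in 3, so these neighbours were not separated. *Nrip1* went from 2.36 ± 0.149 (SD, n = 4) RPKM in WT to 3.47 ± 0.211 (SD, n = 5) for Dp1Tyb, and *Gabpa* from 12.7 ± 1.25 to 19.2 ± 0.829. *Sim2* ranged from 1.33 RPKM in Dp1Tyb replicate 3 to 8.53 RPKM in Dp1Tyb replicate 5.

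**Figure D4:**
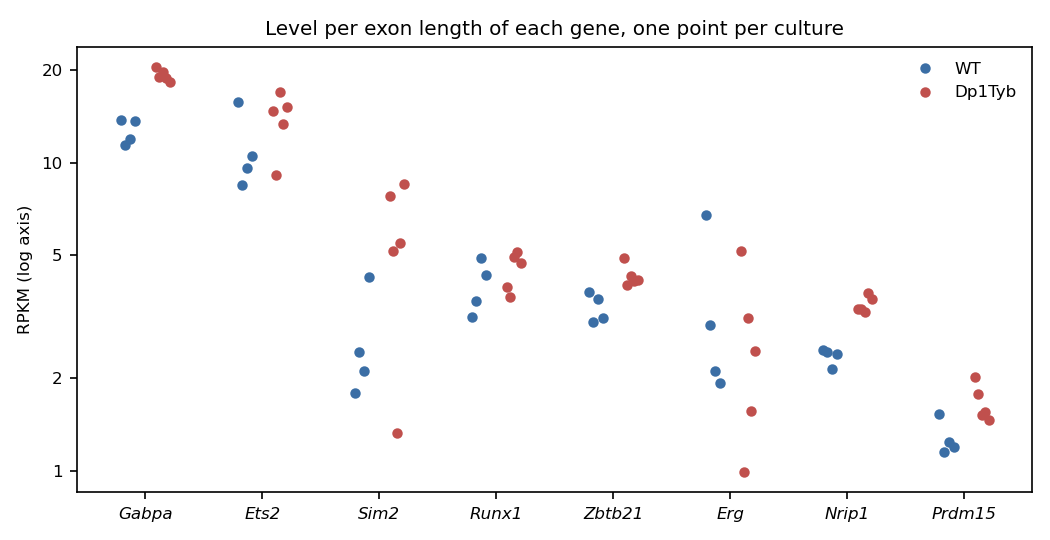
Level of each gene in RPKM (y axis, log scale) with 1 point per WT (blue) or Dp1Tyb (red) culture, genes ordered by mean level. *Gabpa* and *Ets2* lie highest and *Prdm15* lowest, and the points of *Sim2* and *Erg* spread over the widest ranges.

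Genes whose level followed each regulator most closely across the 9 cultures were found after subtracting the genotype means, among 11172 tested genes with at least 100 counts on average. The values are Pearson correlations given as descriptions, since the cultures share their set and their library depth. Each gene named is among the 3 highest of these 11172 over only 9 cultures, so the search itself yields high values. Whether any value exceeds what the search yields without a relation was not tested. For *Ets2* they were *Clec11a*, *Islr* and *Slc27a6*, all at 0.99. *Runx1* had *Ptpn9* and *Ppfia3* at 0.97 and *Cnr1* at 0.96, and *Erg* had *Plce1* at 0.97 and *Cd82* and *Tcf4* at 0.96. *Sim2* was followed by *Rap1gap* at 0.95, *Wdr72* at 0.94 and *Ccng2* at 0.93. The closest to *Prdm15* were *Rbm15* at 0.97, *Exo1* at 0.96 and *Smcr8* at 0.96, and the closest to *Zbtb21* were *Xrcc2* at 0.97, *Clcn6* at 0.94 and *Cnot3* at 0.93. *Gabpa* had *2700049A03Rik*, *Acaca* and *Trappc8* at 0.93. *Nrip1* had the lowest values, with *Dgke* at 0.93, *Cacng7* at 0.90 and *Lox* at 0.89. None of these 24 genes lies in the duplicated region.

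Genes outside the duplication that act with these factors, resemble them or are known to be controlled by them were taken from fixed lists of 70 genes. Of these, 61 had enough reads to be tested, and 0 were called by edgeR in either direction, beside 2 calls among all 14478 genes tested outside the region. DESeq2 with its current defaults also called 0. At an unadjusted edgeR p below 0.05 there were 2 of the 61, *Mmp9* and *Arnt2*, a share near the 3.13% of all genes tested. Their median log2 fold change was -0.00, beside 0.41 for the regulators themselves. The 0 calls do not show that the genes were at equal levels, since the intervals of single genes were often wide.

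Among the partners, all 17 genes were tested, 6 had a positive and 11 a negative log2 fold change, and the median was -0.03. *Arnt2*, which encodes a dimerisation partner of SIM2, had 672 ± 181 (SD, n = 4) normalised counts in WT and 514 ± 75.7 (SD, n = 5) for Dp1Tyb, a log2 difference of -0.39 with an unadjusted edgeR p of 0.0479. *Zbtb14*, a relative that can pair with ZBTB21, was at -0.22 with an interval of -0.44 to 0.00. *Cbfb*, the partner of RUNX1, had 3560 ± 136 counts in WT and 3550 ± 434 in Dp1Tyb MEFs, and *Gabpb1* had 596 ± 40.6 and 597 ± 28.8; these were added after their values were seen because they are the obligate partners of 2 regulators.

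Relatives of the factors elsewhere in the genome numbered 20, all tested, of which 12 had a positive and 8 a negative value, with a median of 0.03. The ETS gene *Fli1*, the closest relative of *Erg*, was at 0.26, with 113 ± 15.9 (SD, n = 4) normalised counts in WT and 135 ± 24.1 (SD, n = 5) for Dp1Tyb. *Zbtb20* was at -0.29, with 375 ± 185 and 307 ± 72.3 counts. Both intervals held 0.

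Known targets numbered 33, of which 24 were tested, 12 with a positive and 12 with a negative value, and the median was 0.02. For *Gabpa*, the regulator with the clearest rise, 7 targets of mitochondrial function and the cell cycle had a median of -0.00. They ranged from -0.10 for *Tfam*, which packages mitochondrial DNA, to 0.19 for *Tfb1m*, a mitochondrial methyltransferase. The 5 *Ets2* targets spread widely around a median of 0.07. *Mmp9*, a matrix protease, had 154 ± 91.1 (SD, n = 4) normalised counts in WT and 333 ± 134 (SD, n = 5) for Dp1Tyb, a log2 fold change of 1.12 with an unadjusted edgeR p of 0.0338 and an adjusted p of 1.0. *Plau*, the urokinase gene, was at 0.76, with 1350 ± 808 and 2300 ± 2020 counts, and 1 culture, Dp1Tyb replicate 2, reached 5896. The other *Ets2* targets were *Bcl2l1* at 0.07, *Ccnd1* at -0.32 and *Mmp3* at -0.54, and the intervals of all 3 held 0.

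Of the 6 *Runx1* targets 4 were tested, with *Csf1r*, the receptor for a macrophage growth factor, at 0.12 and *Cdkn1a*, a cell cycle inhibitor, at 0.18. Only 3 of the 7 *Erg* targets had enough reads, the missing ones being *Cdh5*, *Icam2*, *Cldn5* and *Pecam1* of endothelial cells, and *Eng*, an endothelial co-receptor that fibroblasts also express, was at 0.33 with an unadjusted p of 0.06 in edgeR. The other tested *Erg* targets, *Vwf* and *Tek*, were at -0.15 and -0.18, and the median of the 3 was -0.15. Of the 5 *Nrip1* targets, *Ucp1*, *Cidea* and *Cpt1b* of brown fat and muscle were too low to be tested, *Fabp4*, a fatty acid carrier, was at 0.27 and *Ppargc1a*, a coactivator of mitochondrial genes with a mean of 31.7 counts, was at -0.56. *Spry1*, a feedback inhibitor of growth factor signalling listed for *Prdm15*, was at 0.23, the other listed target, *Rspo1*, was at -0.24, and *Snai2*, listed for *Sim2*, was at -0.00.

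**Figure D5:**
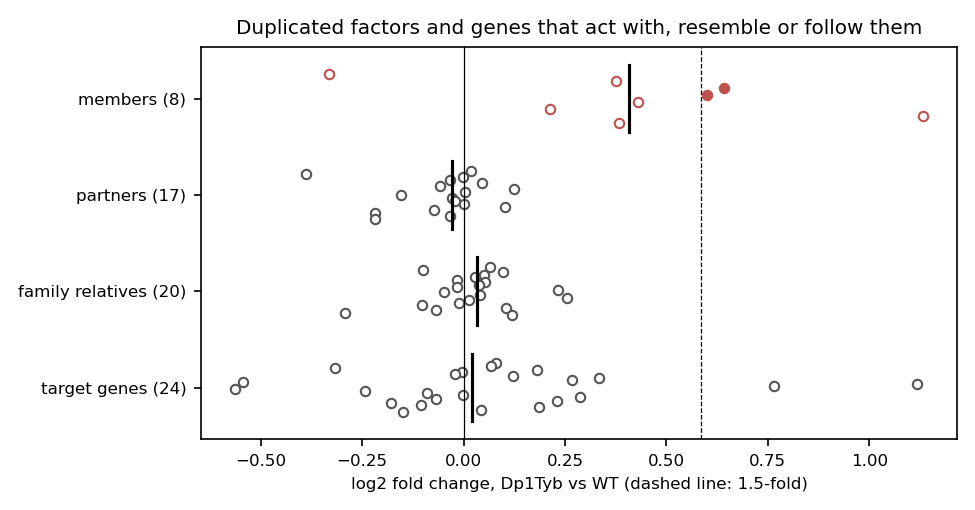
Log2 fold change of Dp1Tyb vs WT (x axis) for the 8 regulators (red), their 17 partners, 20 relatives and 24 tested targets, 1 point per gene, with the median of each list as a vertical bar and 1.5-fold as a dashed line. The 2 filled points, *Gabpa* and *Nrip1*, are those with an adjusted p below 0.05, and the medians of the other 3 lists lie near 0.

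The region holds 3 further factor genes that were listed for comparison. *Bach1*, a repressor of the response to oxidative stress, had 2450 ± 442 (SD, n = 4) normalised counts in WT and 3870 ± 771 (SD, n = 5) for Dp1Tyb. Its log2 fold change was 0.66 with an SE of 0.174, and edgeR gave an unadjusted p of 0.00374 and an adjusted p of 0.648. *Olig1*, a factor of the oligodendrocyte lineage, averaged 8.67 counts and was at -0.66 with an interval of -1.76 to 0.45, and *Olig2* was too low to be tested.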

How the data were processed

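All values come from one RNAseq experiment on 9 MEF cultures, 4 WT and 5 Dp1Tyb, grouped by the genotype in their labels. The authors trimmed reads with Trim Galore, mapped them to GRCm38 with TopHat2 2.0.12, discarded reads that aligned to several places and deposited counts per gene from HTSeq. The strand option and annotation release are not given in the sources used here. The authors also deposited counts divided by size factors and a DESeq2 1.6.3 table of fold changes and p-values, neither of which was used. The counts entered edgeR 4.0.16 (R 4.3.3) with TMM, filterByExpr and the quasi-likelihood test, two-sided, without covariates. P-values were adjusted by Benjamini-Hochberg over 14567 genes, with a threshold of 0.05. A standard error is the absolute log2 fold change over the root of the F statistic. Symbols and exon lengths of 42548 of the 43629 genes came from GENCODE M21. RPKM used the summed exon length and the total count. Log2 values of single cultures against the WT mean were taken from normalised counts without a pseudocount. Residual SDs and correlations with other genes used the log2 CPM of edgeR.

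The 8 genes and all lists were chosen with earlier results of these data known. Named are the 8 genes, for each list any gene called and the 2 whose log2 fold change was farthest from 0 at a mean of at least 100 counts, and for each of the 8 the 3 most correlated genes. Marker genes, genes named as too low, *Cbfb*, *Gabpb1*, *Olig1* and the remaining tested targets of *Ets2*, *Erg*, *Nrip1* and *Prdm15* are outside this rule and were named after their values were seen. Between cultures of one group the variance was 19.5 to 182 times that of counting alone (chi-square per degree of freedom), so no library was counted as a repeat. Each culture is one embryo, and p-values measure the spread between embryos and their cultures. Alternatives were DESeq2 size factors, TMM without the region, other filters on low counts, DESeq2 1.42.0 with and without its beta prior, the culture set as covariate or set 2 alone, a replicate block, and each culture left out in turn.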

Additional observations from a re-analysis of the deposited data

Results flagged for a closer look

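Values of single cultures that lay far from the others of their group by Dixon's criterion were found in 4 of 46 groups checked, over 23 genes, and chance gives about 1 in 20. *Zbtb21* in Dp1Tyb replicate 1 had 801 normalised counts, beside 698 to 724 in the other 4 Dp1Tyb cultures. *Arnt2* in the same culture had 647, beside 460 to 500. *Tfb1m* in WT replicate 4 had 165, beside 131 to 137 in the other WT cultures. *Plau* in Dp1Tyb replicate 2, the culture with the most skeletal muscle marker RNA, had 5896, beside 1229 to 1740.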

How the results depend on the processing

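The number of regulators called higher was 2 with DESeq2's size factors, TMM factors without the region, either filter or the culture set as covariate, and 3 with both forms of DESeq2, which added *Zbtb21* (log2 fold change 0.39 with current defaults, 0.36 with the beta prior). It was 0 within set 2 and 0 with a replicate block, and 0 to 2 with 1 culture left out. Within set 2 the log2 fold change was 0.65 for *Gabpa* and 0.63 for *Nrip1*, and their median with the other 6 genes was 0.50. With 1 culture left out, that median was between 0.37 and 0.54, *Gabpa* between 0.60 and 0.70 and *Nrip1* between 0.56 and 0.63, and *Erg* between -0.69 and 0.19, reversed to 0.19 without WT replicate 1. The other log2 fold changes were 0.10 to 0.33 for *Runx1*, 0.28 to 0.57 for *Ets2*, 0.93 to 1.47 for *Sim2*, 0.37 to 0.51 for *Prdm15* and 0.35 to 0.42 for *Zbtb21*. *Sim2* was at 0.34 with the beta prior, 0.79 with the replicate block and 0.85 within set 2. The listed partners, relatives and targets gave 0 calls under every alternative. The number of genes called over all genes was 24, and 16 with no filter, 68 and 67 with DESeq2, 1 within set 2 and 2 to 26 with 1 culture left out. Fewer cultures enter the fits within set 2 and with 1 left out.

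The replicate numbers in the labels need not pair the cultures. The deviations of same-numbered cultures correlated at 0.35 on average, from 0.03 to 0.74 over 4 pairs, beside -0.09 for other pairs, and only 1 of the 4 WT cultures correlated best with its own number. With the number as a replicate block, and Dp1Tyb replicate 5 left out for want of a partner, *Gabpa* was at 0.66 (edgeR adjusted p 0.0841) and *Nrip1* at 0.59 (0.0873), and no gene was called over the whole table, while 800 had an unadjusted p below 0.05.

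The lowest read count in a culture was 87, for *Erg*, while the other 7 regulators had at least 149 reads in every culture. With 4 and 5 cultures, the intervals of *Sim2* and *Erg* span more than a doubling.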
